A study of Pomacea canaliculata with 12 samples.

Results

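A group of 162 genes, of 21131 in the table, was nearly silent in the dissected retina of the apple snail and present in each of the 3 neighbouring head tissues. The members were chosen by level alone, in normalised CPM (counts per 1000000 counts of a library whose size was scaled by the trimmed mean of M-values, TMM). A member had at most 0.3 CPM in all 3 retina libraries and at least 1 CPM in all 9 libraries of eye stalk, cephalic tentacle and oral tentacle. Its eye stalk mean also lay less than 4-fold from the mean of the 6 tentacle libraries. The retina level, the floor of 1 CPM and the eye stalk to tentacle ratio therefore chose the members and are given below as descriptions without a test. The level in retina was the narrowest gate: 13449 genes met the floor of 1 CPM in the other 9 libraries, 175 of these stayed within the retina limit, and 13 of the 175 were left out by the limit on the eye stalk to tentacle ratio.

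The libraries were of polyadenylated RNA from Pomacea canaliculata, a freshwater snail studied for regrowth of its eye. Each of the 4 tissues had 3 libraries: extracted retinas, amputated eye stalks, cephalic tentacles and oral tentacles, with no other treatment named. The sources used here do not give strain, age, sex, time of collection or the number of animals per library, nor whether the eye stalk samples kept the eye. Nothing says that libraries of a tissue came from separate animals. The p-values therefore set a difference between tissues only against the scatter of these libraries, part of which may be technical.

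The camera-type eye of this snail has a lens in front of a cup-shaped retina, and it sits on a short stalk beside the cephalic tentacle. A retina is a sheet of photoreceptors, pigmented supporting cells and nerve processes. Stalks and tentacles are outgrowths of the body wall, with a ciliated, mucus-secreting epidermis, muscle, nerves, blood spaces and connective tissue, and the tentacles carry touch and chemical senses. The genes carry LOC identifiers only, without a description, so no member is given a function here, and no markers could be looked up to check the tissue labels. In bulk RNA, fewer cells of a type and less RNA per cell cannot be told apart.

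Library totals ran from 40794864 to 45673871 counts in retina and from 10804847 to 21561988 in the other tissues. The retina was thus read more deeply than any other tissue, and 1 count there was worth 0.0287 to 0.0315 CPM, against 0.0414 to 0.0844 CPM elsewhere. TMM scaling multiplied library sizes by 0.762 to 0.799 for retina and by 1.03 to 1.13 for the rest, which raises retina CPM relative to unscaled values. Retina replicate 4 stood apart from the other retina libraries, with a chi-square per degree of freedom of 666 against replicate 1 and 527 against replicate 3, while replicates 1 and 3 differed by 80.3. Among the members, 46 overlap another gene in the reference annotation by start and end, without regard to exons or strand. With the strand setting unknown, some of their reads may belong to the partner, those of LOC112553670, LOC112564422 and LOC112567761 below included.

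In retina the members left a trace of reads at most. All 162 together held 283, 322 and 606 counts in retina replicates 1, 3 and 4. Replicate 4 thus held about as many member counts as the other two together. Their summed level was 12.004 ± 4.70 CPM for retina (SD, n = 3). It was 1413 ± 459 CPM for eye stalk, 1194 ± 348 CPM for cephalic tentacle and 1243 ± 334 CPM for oral tentacle (SD, n = 3 for each). The retina sum was 0.850% of the eye stalk sum and 0.985% of the tentacle sum. As a share of all counts the members took 0.148 ± 0.0483% of an eye stalk library, 0.132 ± 0.0412% of a cephalic and 0.139 ± 0.0383% of an oral tentacle library (mean ± SD over 3 libraries).

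Over the 3 retina libraries, 30 members (18.5%) had 0 counts, 20 had 1 to 3, 55 had 4 to 9 and 57 had 10 or more, with a median of 7 and a highest total of 25. A total of 0 allows up to 3 counts, or 0.0301 CPM over the 3 libraries. This limit covers counting error only. A count was seen in all 3 retina libraries for 24 members, in 2 for 53 and in 1 for 55. The number of members without a count was 107 in replicate 1, 99 in replicate 3 and 47 in replicate 4. The retina limit therefore bound most often in replicate 4: without it the rule took 315 genes, of which 109 had 0 counts in the 2 remaining libraries, and without replicate 1 the genes at 0 numbered 49.

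**Figure D1:**
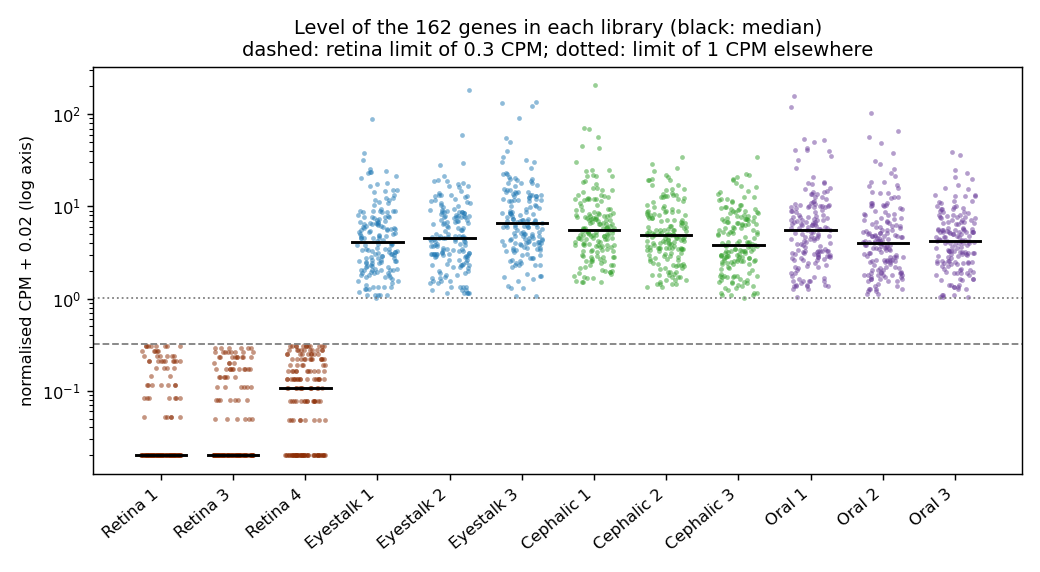
Normalised CPM, plus 0.02 on a log axis, of the 162 members in each of the 12 libraries, with each point a gene and the black line the median. Retina points lie at or below the limit of 0.3 CPM by choice, with a median of 0 in replicates 1 and 3 and 0.0862 CPM in replicate 4, and library medians in the other tissues run from 3.83 to 6.51 CPM.

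Outside the retina most members were modest transcripts. The mean over the 9 other libraries had a median of 5.37 CPM (quartiles 3.55 and 9.12, range 1.71 to 63.4), against a median of 28.5 CPM over all 13449 genes that met the floor of 1 CPM. It was under 5 CPM for 73 members and at least 10 CPM for 34. The highest tissue mean was in eye stalk for 79 members, in oral tentacle for 46 and in cephalic tentacle for 37.

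Several of the most abundant members were uneven from library to library. LOC112568028 had 7.95, 60.1 and 136.6 CPM in eye stalk replicates 1, 2 and 3, 207 CPM, 8.88 and 3.30 in cephalic tentacle replicates 1, 2 and 3, and 119.8, 4.22 and 23.0 CPM in the oral tentacle replicates. Its only retina read was 1 count in replicate 4. High and low libraries occurred side by side within each tissue, so the 3 tissues overlapped throughout. LOC112562854 had 2.01, 1.88 and 124 CPM in eye stalk, 8.03, 6.14 and 14.2 CPM in cephalic tentacle and 159 CPM, 104 and 5.20 in oral tentacle. It had 0 counts in retina, at least 1568-fold below the mean elsewhere when set against 3 counts over the 3 retina libraries. This gene overlaps another gene in the reference annotation, and with the strand setting unknown some of its reads may belong to that partner.

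LOC112564288 and LOC112568955 had a like profile, high in eye stalk replicate 3, cephalic replicate 1 and oral replicates 1 and 2. LOC112564288 had 4.86, 8.65 and 133 CPM in eye stalk, 71.6, 17.2 and 21.7 CPM in cephalic tentacle and 49.6, 48.3 and 3.26 CPM in oral tentacle. LOC112568955 had 2.70, 3.43 and 55.6 CPM in eye stalk, 43.0, 2.29 and 4.08 CPM in cephalic tentacle and 40.6, 66.4 and 1.79 CPM in oral tentacle. In both genes the 3 tissues overlapped, with high and low libraries in each. Their retina totals were 8 and 3 counts.

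LOC112560052 followed another order, with 16.5, 184.9 and 3.99 CPM in eye stalk, 56.8, 24.1 and 16.3 CPM in cephalic tentacle and 17.5, 8.02 and 39.1 CPM in oral tentacle. Eye stalk replicate 2 alone lifted its tissue mean. LOC112554596 had 87.9, 28.2 and 90.4 CPM in eye stalk, 44.7, 13.1 and 20.05 CPM in cephalic tentacle and 17.8, 7.43 and 17.2 CPM in oral tentacle. LOC112572660 had 8.88, 18.7 and 7.26 CPM in eye stalk, 14.98, 34.4 and 7.65 CPM in cephalic tentacle and 39.5, 57.2 and 35.7 CPM in oral tentacle, so that its 3 oral libraries lay above the other 6. LOC112566856 was steadier, with 8.88, 8.73 and 26.0 CPM in eye stalk, 24.8, 28.9 and 20.9 CPM in cephalic tentacle and 52.8, 30.8 and 15.5 CPM in oral tentacle.

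**Figure D2:**
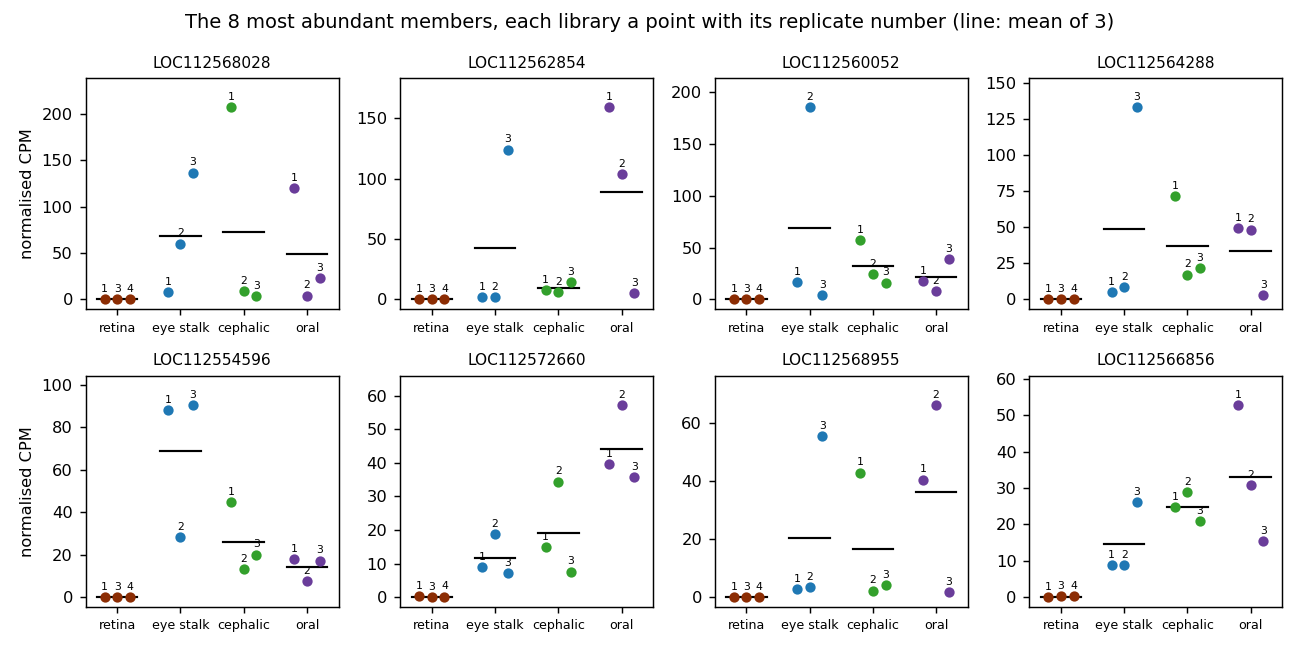
Normalised CPM of the 8 members with the highest mean outside the retina, each library a point labelled with its replicate number and each line the mean of 3 libraries. Retina points lie at 0.252 CPM or lower, and in LOC112562854, LOC112564288 and LOC112568955 eye stalk replicate 3 stands far above eye stalk replicates 1 and 2.

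The spread between libraries of one tissue was wide among the members. The SD of log2(CPM + 0.5) within tissues, pooled over the 3 tissues outside the retina, had a median of 0.57 over the members and 0.26 over the 13449 genes that met the floor of 1 CPM. Over the 1676 of those genes that were not members and had a mean within the members' quartiles, the median was 0.37. Their median level was 6.34 CPM, against 5.37 CPM over all 162 members, some of which lay below that range, so levels were only roughly matched. This SD was above 1 for 17 members (10.5%), against 3.14% of the 13449 genes and 2.98% of the 1676. The ratio of the highest to the lowest of the 9 libraries had medians of 4.81, 2.21 and 3.22 in the same 3 sets. No test was made of these differences, since the genes share their libraries.

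The same libraries were often the highest or lowest of their tissue. Eye stalk replicate 3 was the highest of the 3 eye stalk libraries for 103 members (63.6%), against 38.7% of the 13449 genes and 39.7% of the 1676. Cephalic replicate 1 was the highest cephalic library for 82 members (50.6%, against 30.7% and 32.04%), and oral replicate 1 the highest oral library for 76 (46.9%, against 30.3% and 30.0%). At the other end, cephalic replicate 3 was the lowest of its tissue for 89 members (54.9%, against 32.99% of the 13449 genes and 32.9% of the 1676) and eye stalk replicate 1 for 78 (48.1%, against 31.3% and 28.6%). The median deviation from the tissue mean was 0.39 on the log2 scale in eye stalk replicate 3 and -0.23 in cephalic replicate 3 over the members, and 0.01 and 0.03 over the 13449 genes. What set these libraries apart was not tested.

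Other members were almost flat. LOC112573953 had 7.64, 5.96 and 6.15 CPM in eye stalk, 7.08, 5.03 and 5.03 CPM in cephalic tentacle and 7.10, 6.75 and 5.20 CPM in oral tentacle, with 0 counts in retina. Its highest library outside the retina was 1.52 times its lowest, the smallest such ratio among the members. LOC112567761 came next at 1.56 times, with 1.54 to 2.41 CPM in the 9 libraries and 6 counts in retina. The largest ratios were 84.8 for LOC112562854 and 62.8 for LOC112568028.

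After LOC112562854, the most abundant members without a retina read were LOC112572399, LOC112569571 and LOC112573955. LOC112572399 had 2.63, 1.55 and 9.90 CPM in eye stalk, 13.2, 4.96 and 12.6 CPM in cephalic tentacle and 41.4, 23.1 and 1.01 CPM in oral tentacle, a mean at least 408-fold above retina. LOC112569571 had 7.57, 13.0 and 19.96 CPM in eye stalk, 21.4, 19.2 and 6.03 CPM in cephalic tentacle and 5.56, 4.73 and 7.07 CPM in oral tentacle, at least 386-fold above. LOC112573955 had 11.04, 11.9 and 7.26 CPM in eye stalk, 2.28, 13.9 and 8.82 CPM in cephalic tentacle and 9.47, 18.4 and 13.0 CPM in oral tentacle, at least 355-fold above. These bounds set the retina at 3 counts over its 3 libraries, and LOC112573955 overlaps another annotated gene.

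Eye stalk and tentacle levels were close for most members, within the span that the rule allowed. The ratio of the eye stalk mean to the tentacle mean had a median of 1.12 (quartiles 0.736 and 1.67, range 0.266 to 3.45). It lay above 1 for 92 members and below 1 for 70, and between 0.5 and 2 for 118. Eye stalk lay entirely above the 6 tentacle libraries for 10 members and entirely below them for 7 (6.17% and 4.32%), against 16.7% and 15.7% of the 13449 genes that met the floor of 1 CPM, from which nothing is read since the rule used this ratio. LOC112571606 had 8.96, 7.59 and 8.14 CPM in eye stalk and 1.27 to 3.77 CPM in the tentacles, a ratio of 3.45 without overlap. LOC112557743 had 17.8, 11.8 and 14.1 CPM in eye stalk and 2.77 to 5.71 CPM in the tentacles (ratio 3.44). LOC112554596, described above, had the third highest ratio, 3.43, but its eye stalk and tentacle libraries overlapped. At the low end stood LOC112558933, with 1.16, 1.14 and 1.04 CPM in eye stalk and 2.85 to 5.51 CPM in the tentacles (ratio 0.266). LOC112553670 had 3.40, 4.57 and 16.4 CPM in eye stalk and 10.1 to 42.5 CPM in the tentacles, with overlap (ratio 0.269), and LOC112572399 had a ratio of 0.292.

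Cephalic and oral tentacle form the 1 contrast that the rule did not use, and edgeR called no member different between them. All 162 members passed the low-count filter. Over the 16879 genes tested, edgeR's quasi-likelihood test called 30 genes (0.178%) higher in cephalic tentacle and 30 (0.178%) higher in oral tentacle at an adjusted p under 0.05, together 0.355%. It called 0 of the 162 members in either direction, which is near a background that small. At an unadjusted p under 0.05 there were 4 members (2.47%), against 9.21% of all genes tested. This fit did not pair libraries by replicate number. With a replicate block within the tentacle libraries, 17 members (10.5%) had an unadjusted p under 0.05, against 17.3% of all genes, and again 0 were called. The members' log2 fold changes had a median of 0.02 (quartiles -0.43 and 0.55), with 85 above 0 and 77 below, beside a median of 0.03 (quartiles -0.22 and 0.28) over all genes. At least 2-fold differences were fitted for 21 members (13.0%) and for 8.61% of all genes, or 3.29% of the 13449 genes that met the floor of 1 CPM. Standard errors were wide, with a median of 0.67 on the log2 scale over the members, and a call needs a difference of several standard errors. Even the largest fitted difference of a member, -3.24 with a standard error of 1.66 in LOC112562854, was not called (edgeR adjusted p = 0.62). The absence of calls therefore does not show that the members were alike in cephalic and oral tentacle.

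The 4 members with an unadjusted p under 0.05 were singled out after their values were seen, and none passed adjustment. LOC112572783 had 1.66, 1.70 and 2.01 CPM in cephalic tentacle and 2.88, 4.56 and 6.83 CPM in oral tentacle, without overlap, so that the log2 fold change was -1.41 with an SE of 0.41 (edgeR, adjusted p = 0.26). DESeq2 called this gene alone (adjusted p = 0.029) among the 161 members it tested, a share of 0.621%, while of 20132 genes it called 0.874% in that direction, to oral tentacle, and 0.964% in the other. LOC112563065 had 10.2, 15.4 and 5.14 CPM in cephalic and 4.79, 1.10 and 1.24 CPM in oral tentacle (2.09 ± 0.84, edgeR adjusted p = 0.48). LOC112569571 had a log2 fold change of 1.42 ± 0.52 (edgeR adjusted p = 0.45) and LOC112572660 one of -1.22 ± 0.53 (edgeR adjusted p = 0.52), with library values as given above. Neither LOC112563065 nor LOC112569571 nor LOC112572660 separated by a wide margin, and in LOC112569571 cephalic replicate 3 lay among the oral libraries.

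**Figure D3:**
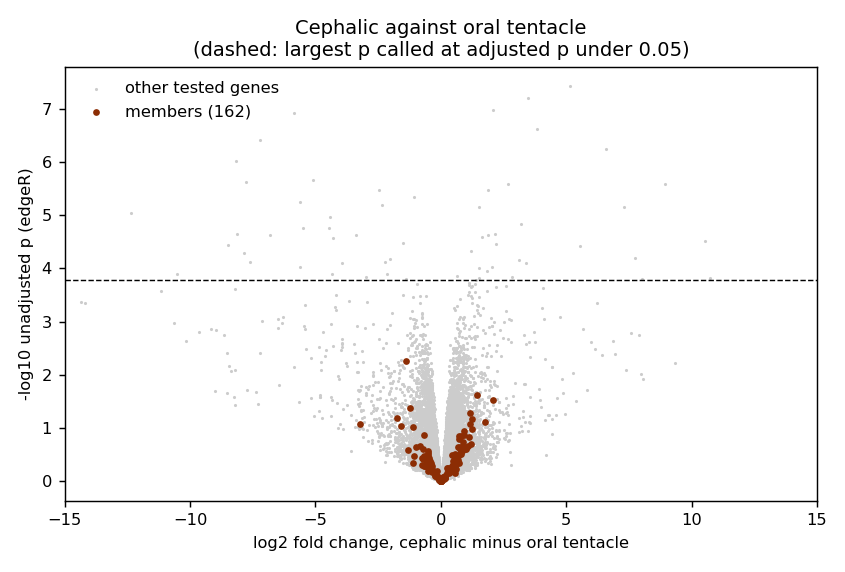
Log2 fold change between cephalic and oral tentacle against -log10 of the unadjusted edgeR p for the 16879 genes tested, with the 162 members in brown. No member reaches the dashed line of the genes called at an adjusted p under 0.05.

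The members were unevenly placed in the genome. Gene order was taken from the reference gene table of assembly ASM307304v1, in which all 21131 identifiers were found and all 162 members were placed on a linkage group (a chromosome-scale sequence). Since the build behind the counts is not given, the order is used here only for which genes neighbour each other. Of 14 linkage groups, 1 held 43 members, 26.5% of them, although it held 8.16% of the genes in the table and 5.14% of the 13449 genes that met the floor. That is 6.22 members per 100 such genes, against 2.77 on the linkage group that came second, with 22 members, and 0.212 to 2.26 on the other 12. On the leading linkage group 33 of the 43 members lay among the first 862 of its 1724 genes and 10 among the other 862. Only 691 of the 1724 met the floor, and how these were divided was not counted, so nothing is read from this split.

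Genes on that linkage group that were not members were also more often low in retina than such genes on the other linkage groups. Retina was set against the mean of the 3 other tissues for genes that met the floor of 1 CPM and were not members, a comparison added after the data were seen. Over all 16879 genes tested, 32.9% were called lower in retina and 30.4% higher (edgeR quasi-likelihood test, adjusted p under 0.05). On the leading linkage group, 373 of 648 such non-members (57.6%) were called lower and 100 (15.4%) higher, with a median log2 fold change of -1.65. Of the remaining 12639, nearly all on the other linkage groups and a few placed on none, 3760 (29.7%) were called lower and 4514 (35.7%) higher. Their median was 0.09. At least 8-fold lower levels in retina were fitted for 33.8% of the non-members on the leading linkage group, for 22.7% on the second and for 4.14% to 14.1% on the others. The order of the linkage groups by members and by low non-members matched for the first 3.

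**Figure D4:**
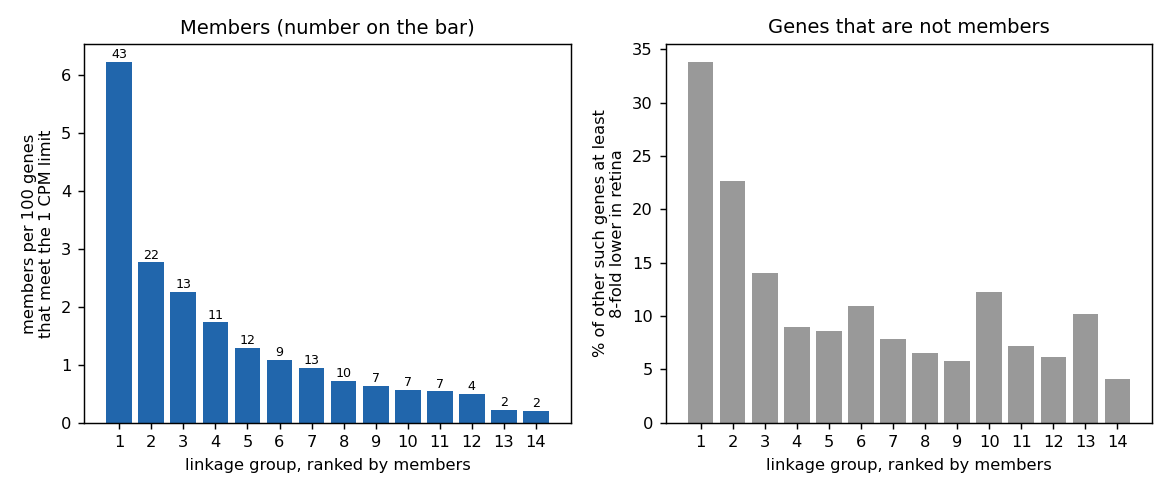
Left, members per 100 genes that met the floor of 1 CPM on each of 14 linkage groups, ranked, with the number of members on each bar. Right, the percentage of the other such genes on the same linkage groups that were fitted as at least 8-fold lower in retina, highest on the first at 33.8%.

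Genes directly beside a member were mostly low in retina, on the leading linkage group and on the others. Members had 166 direct neighbours that met the floor and were not members themselves. Of these, 128 (77.1%) were called lower in retina and 18 (10.8%) higher, against 31.1% and 34.7% of all 13287 non-members that met the floor, with a median log2 fold change of -3.15 (quartiles -4.45 and -1.12). Genes that were no neighbours and had a mean level within the neighbours' quartiles, 8.44 to 40.9 CPM, were called lower in 30.4% of 6316 cases. Leaving out the neighbours that overlap a member in the annotation, 112 of 147 (76.2%) were called lower. The call was made for 38 of 43 neighbours (88.4%) on the leading linkage group and for 90 of 123 (73.2%) elsewhere. Neighbours are no independent draws, since a stretch of genes can border several members, and near-identical copies side by side could split reads.

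The low level faded with distance on the linkage groups other than the leading one. There the median log2 fold change was -2.99 for genes next to a member and -0.66 at a distance of 2 genes. It was -0.42 at 3 to 5, -0.05 at 6 to 10 and 0.07 at 11 to 20. On the leading linkage group it was -3.50, -3.15, -2.39, -0.96 and -0.38 at the same distances. It was again lower farther out, at -2.24 for 21 to 50 genes and -1.32 for over 50, so distance alone did not order the values there.

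**Figure D5:**
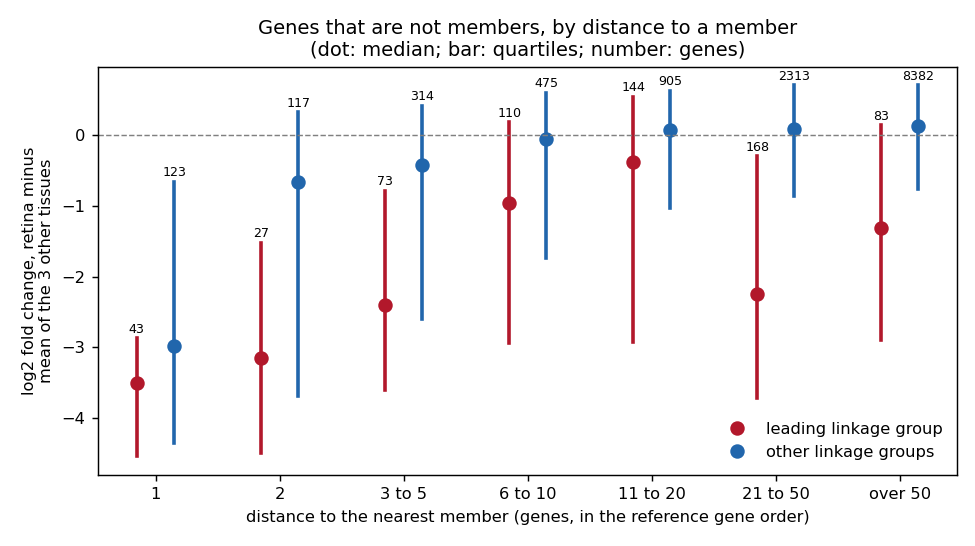
Log2 fold change of retina against the mean of the 3 other tissues for genes that met the floor of 1 CPM and were not members, by distance in genes to the nearest member, as medians (dots) and quartiles (bars) with the number of genes above each bar. Direct neighbours have medians of -3.50 on the leading linkage group and -2.99 elsewhere. Genes more than 50 away have medians of -1.32 on the leading linkage group and 0.14 on the others.

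Some members stood in direct runs. Of the 162, 26 were next to another member, in 10 runs of 2 and 2 runs of 3, and 78 (48.1%) lay within 10 genes of another. No such share was taken for other genes, so these counts are descriptions only. The densest stretch held 6 members among 10 consecutive genes. These were LOC112555476, LOC112555477, LOC112555480, LOC112555481, LOC112555482 and LOC112554944, and it was not on the leading linkage group. LOC112555480 had 23.3, 10.2 and 8.70 CPM in eye stalk, 6.41, 5.33 and 5.58 CPM in cephalic tentacle and 5.30, 1.69 and 5.51 CPM in oral tentacle, so that its eye stalk libraries lay above the rest. LOC112555481 had 17.3, 11.1 and 7.82 CPM in eye stalk, 7.45, 7.48 and 13.5 CPM in cephalic tentacle and 7.05, 5.74 and 13.0 CPM in oral tentacle, with overlap. LOC112555482 had 8.57, 8.49 and 11.4 CPM in eye stalk, 8.32, 8.07 and 4.47 CPM in cephalic tentacle and 10.6, 5.40 and 4.58 CPM in oral tentacle. The 3 neighbours thus differed in profile outside the retina. Their retina totals were 3, 16 and 18 counts. Beside this run, LOC112554941 and LOC112554948 missed membership with retina means of 0.362 and 0.407 CPM against 12.9 and 14.1 CPM elsewhere, and both were called lower (log2 fold changes -5.09 and -5.01, edgeR adjusted p = 4.9e-06 and 0.00014). LOC112554947, on the other side, had 2.17 CPM in retina and 18.6 CPM elsewhere and was not called (edgeR adjusted p = 0.096). All members of this stretch but LOC112555476 overlap another gene in the annotation, so some of their reads may belong to that other gene.

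The other run of 3 was LOC112575015, LOC112575014 and LOC112575020, of which the last pair overlap each other. LOC112575015 had 5.41, 10.8 and 7.03 CPM in eye stalk, 10.3, 7.18 and 22.4 CPM in cephalic tentacle and 32.02, 10.3 and 11.4 CPM in oral tentacle. LOC112575014 had 5.95, 8.98 and 6.47 CPM in eye stalk, 6.62, 3.41 and 16.6 CPM in cephalic tentacle and 14.2, 9.29 and 13.4 CPM in oral tentacle, and LOC112575020 had 2.29 to 7.76 CPM in the 9 libraries. In all 3 genes cephalic replicate 3 was the highest cephalic library. The 3 genes before and the 3 after this run were all called lower in retina (edgeR adjusted p from 0.0011 to 0.017). Their log2 fold changes were -3.07 in LOC112575016, -6.11 in LOC112575013 and -5.00 in LOC112575012 on one side. They were -4.31 in LOC112575017, -4.23 in LOC112576127 and -1.63 in LOC112575864 on the other. The stretch of genes that were members or were called lower thus ran through at least 9 consecutive genes, of which 3 were members. LOC112575864, at its end, still had 7.66 CPM in retina against 25.3 CPM elsewhere, and LOC112575013 did not meet the floor of 1 CPM.

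A pair of members in a different setting was LOC112554499 and LOC112554500, which overlap each other. LOC112554499 had 7.26, 7.998 and 19.2 CPM in eye stalk, 13.2, 8.88 and 7.37 CPM in cephalic tentacle and 14.5, 1.604 and 3.96 CPM in oral tentacle. LOC112554500 had 12.4, 17.3 and 40.4 CPM in eye stalk, 24.7, 20.7 and 17.9 CPM in cephalic tentacle and 26.0, 3.72 and 9.32 CPM in oral tentacle. The order of the 9 libraries was nearly the same in both. The genes given here before the pair were not called low: LOC112553579, 3 genes before LOC112554499, was called higher in retina with 1271 CPM against 334.6 CPM elsewhere (log2 fold change 2.03, edgeR adjusted p = 2.2e-05), and LOC112554530, directly before it, had 4.13 CPM in retina and 7.34 CPM elsewhere (edgeR adjusted p = 0.18). LOC112554501, directly after the pair, had 0.373 CPM in retina and 1.95 CPM elsewhere, did not meet the floor of 1 CPM and was not tested.

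The limits of the rule cut through a continuous range of levels. Just inside the retina limit were LOC112576211, LOC112564422 and LOC112555819, each with 10 counts (0.287 CPM) in retina replicate 4 and means of 20.8, 15.8 and 14.7 CPM elsewhere. Just outside it were LOC112555485, LOC112557857 and LOC112560496, each with 10 counts (0.3005 CPM) in retina replicate 3 and means of 7.52, 6.56 and 3.08 CPM elsewhere. At the floor of 1 CPM, the lowest library was at 1.004 CPM in LOC112569219 and 1.01 CPM in LOC112569515 and LOC112572399, and at 0.979 CPM in LOC112553404, LOC112570379 and LOC112574721, which stayed outside. At the limit on the eye stalk to tentacle ratio, LOC112558933, LOC112553670 and LOC112571606 were inside, at 3.75-fold lower, 3.72-fold lower and 3.45-fold higher in eye stalk. LOC112565054, 4.005-fold lower, LOC112574588, 4.41-fold higher, and LOC112553237, 4.50-fold lower, were outside.

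By the same pair of level limits, without the limit on the eye stalk to tentacle ratio, 175 genes were at or below 0.3 CPM in retina alone. Applied to the other tissues in turn, the limits took 0 genes for eye stalk, 4 for cephalic tentacle and 1 for oral tentacle. They took 21 genes at or below 0.3 CPM in all 6 tentacle libraries and at 1 CPM or more in the other 6. These numbers are descriptions, since the tissues differ in depth and in how unlike the others they are.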

How the data were processed

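Poly(A) RNA was extracted with Trizol, per the labels' protocols. The authors deposited raw read counts, whole numbers for each gene in 12 libraries. STAR is named in the submitters' processing notes. The sources used here do not give its version, the counting tool, the strand setting or the genome build. Each column carried the title of 1 sample. The members, gene lists and comparisons were chosen with earlier results of these data known. Lists resting on product descriptions or protein sequences could not be applied.

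TMM factors were computed over all 21131 genes, and CPM from them. Tests used edgeR 4.0.16 (R 4.3.3), quasi-likelihood with robust settings, on all 12 libraries with tissue as the term, after filterByExpr (16879 genes). P-values were Benjamini-Hochberg adjusted over all genes tested and called under 0.05. The script was run on simulated data with less scatter between libraries than the members showed. That run does not measure how well changes in the members would be found. Within each tissue, every pair of libraries differed beyond sampling noise (chi-square per degree of freedom 34.0 to 666). DESeq2 1.42.0 was an alternative.

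Replicate numbers come from the titles. Deviations of same-numbered cephalic and oral libraries correlated across tested genes (r = 0.39, 0.30 and 0.52 for numbers 1, 2 and 3), so they were read as pairing cephalic with oral libraries. Over the members alone the same correlations were 0.40, -0.03 and 0.21. Eye stalk did not pair by number in this way: over all tested genes r was -0.33, 0.03 and -0.38 against cephalic tentacle. Against oral tentacle it was -0.24, 0.0004 and -0.35. The main fits treat the libraries as separate, with a replicate block as an alternative. The block over 12 libraries also tied eye stalk and retina libraries by number. Number 4 occurred in retina alone, so that block in effect left retina replicate 4 out of the retina contrast. Named genes were, by rule, the 8 most abundant members, the 4 most abundant without a retina count, the 3 nearest each limit on either side, the 3 highest and 3 lowest in eye stalk to tentacle ratio, the 2 most and 2 least even, called members, and the 3 longest runs of neighbours, ties going to the more abundant run. The others were named after their values were seen.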

Additional observations from a re-analysis of the deposited data

How the results depend on the processing

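The size of the group follows its limits. It held 73 genes with a retina limit of 0.15 CPM, 349 with 0.6 CPM, and 77 with a floor of 2 CPM. Leaving out 1 library at a time gave 144 to 315 genes, the most without retina replicate 4, and 320 genes without retina replicate 4 and eye stalk replicate 3 together, an alternative chosen after seeing the data. RLE scaling gave 163, unscaled library totals 227, TMM after filtering 143, a 2-fold limit on the eye stalk to tentacle ratio 118 and equal totals 157, of which 97 were among the 162. Members with 0 retina counts numbered 8 with a floor of 2 CPM, 76 at equal totals, and 28 to 109 without 1 library (110 without both libraries). The share of members on the leading linkage group was 15.6% with a floor of 2 CPM and 35.6% with a retina limit of 0.15 CPM, and lay between these in the other alternatives.

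Between cephalic and oral tentacle, edgeR called 0 members in every alternative run, with a replicate block over 12 libraries, with a replicate block within the tentacle libraries and without any 1 library included, and DESeq2 called 1, higher in oral tentacle, and 0 higher in cephalic tentacle. Members at an unadjusted p under 0.05 numbered 17 with the block within the tentacle libraries, 12 in the tentacle libraries alone and 13 with DESeq2, or 10.5%, 7.41% and 8.07% of those tested, against 17.3%, 14.6% and 9.51% of all genes tested. Neighbours called lower in retina numbered 123 to 141 of 166 (DESeq2 tested 165) over the alternatives of that count. The share of all genes called lower was 28.5% to 46.4%. Both were highest with library totals, where the median over all genes tested moved from -0.09 to -0.58. With the replicate block over 12 libraries 123 were called, but that block in effect left out retina replicate 4. The low depth of the libraries outside the retina limits what is seen near 1 CPM.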

Other observations

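Nearby genes resembled each other in their retina level beyond the members. Genes that met the floor of 1 CPM were paired with the next such gene, so genes below the floor could lie between them. Over 13425 such pairs the log2 fold changes of retina against the other tissues correlated with r = 0.40. Over the 13121 pairs without a member r was 0.36. The same pairs gave r = 0.11 for eye stalk against the tentacles and r = 0.09 for cephalic against oral tentacle. The eye stalk values were log2 ratios of mean CPM, while the other contrasts were edgeR fits. In the retina contrast 32.9% of genes were called lower and 30.4% higher, but only 0.355% were called between cephalic and oral tentacle. Values of r from contrasts so unlike in size are no like comparison. Whether the likeness within such pairs was particular to retina was not tested. These values are across genes, share the same 12 libraries, and are descriptions only.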
